A study of Homo sapiens with 18 samples.

Results

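The genes described here encode enzymes of cholesterol synthesis, chosen as a list of 9 symbols: HMGCS1, MVK, MVD, IDI1, FDPS, FDFT1, SQLE, LSS and DHCR7. Of these, 7 were on a probe set that the annotation of the array names, out of 14884 named genes in all. FDFT1 and LSS were dropped and are not analysed here. Levels were read on Affymetrix Human Gene 2.0 ST arrays, which probe transcripts along their length, in U937, an established human line of monocytic lineage from a histiocytic lymphoma. The 18 arrays formed 6 groups of 3, all of the same line: decitabine plus panobinostat, decitabine plus valproic acid, panobinostat, valproic acid, decitabine, and control, whose label says no more than ctrl. Decitabine (5-aza-2′-deoxycytidine, a cytosine analogue that depletes DNA methyltransferases) was given in 3 pulses of 24 h. The inhibitor was present for 24 h both alone and in the combinations, where it was given together with the last pulse. Panobinostat and valproic acid both inhibit histone deacetylases. The labels carry the numbers 50 for decitabine, 8 for panobinostat and 1 for valproic acid without a unit, so the inhibitors were not taken as dosed alike. All groups stand for 1 cell line, and the labels do not say whether the 3 arrays in each group are separate cultures, so the p-values measure the spread between arrays, and the number of arrays limits the precision.

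Cells build cholesterol from acetyl-CoA through mevalonate and the isoprenoid farnesyl diphosphate, which is then joined into squalene and closed into the sterol rings. Farnesyl diphosphate also feeds the lipid anchors of small GTPases, dolichol and ubiquinone. The genes of the pathway are known to be switched on together by SREBP-2, a membrane-bound transcription factor that is released when sterols in the endoplasmic reticulum run low, and that acts beside NF-Y and SP1 at many of these promoters. Dividing leukaemic and lymphoma cells use the pathway for membrane growth.

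The deposited log2 levels of all probe sets ranged between 2.29 and 14.57, with a median of 3.84, and the medians of single arrays lay between 3.81 and 3.87. Arrays of the same group correlated with an r of 0.985 to 0.992 over genes. Of 24 markers of cell identity, 11 were on named probe sets. The monocytic markers LYZ and CD68 stood at 7.33 and 7.53 in control cells, whereas CD14 was at 3.45, below the median of all values. In decitabine plus panobinostat against control, 3 of 6 monocytic markers rose and 2 fell, with LYZ up by 2.24 and MPO down at -0.93. Of 5 markers of other cell types, CD2 (1.88) and EPCAM (0.73) rose in that comparison. EPCAM stood at 3.72 in control, below the median of all values. CD2 rose by 2.04 in decitabine plus valproic acid against control. The test described below called 23.2% of all genes in the first of these comparisons and 17% in the second. The summed linear signal of the T cell list, which is CD2 alone, was 49.6 to 62.2 with decitabine plus panobinostat, 59 to 70 with decitabine plus valproic acid and 13.4 to 17.9 in control. The summed signal of the 3 epithelial markers spanned 118 to 151, 108 to 153 and 120 to 135 in the same groups. The part of these changes in the results below was not tested.

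Because the pathway is known for shared control at its promoters, the RefSeq windows (build GRCh38.p14, 250 bases before to 50 after an annotated start) were searched for exact letters on both strands. Windows were found for 6 of the 7 genes, 10 windows in all. The upstream bases of 1 window each are shown for the 4 enzymes that were lower with decitabine plus panobinostat, in lower case and 5′ to 3′ along the gene. Capitals mark CCAAT, the box read by NF-Y, or its reverse complement ATTGG.
HMGCS1, chr5:43313413-43313662, minus strand: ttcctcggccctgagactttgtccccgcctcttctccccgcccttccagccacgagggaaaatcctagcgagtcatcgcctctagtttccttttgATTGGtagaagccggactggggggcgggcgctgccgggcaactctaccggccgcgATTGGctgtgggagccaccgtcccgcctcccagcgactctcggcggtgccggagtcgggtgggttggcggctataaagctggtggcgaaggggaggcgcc
MVK, chr12:109573544-109573793, plus strand: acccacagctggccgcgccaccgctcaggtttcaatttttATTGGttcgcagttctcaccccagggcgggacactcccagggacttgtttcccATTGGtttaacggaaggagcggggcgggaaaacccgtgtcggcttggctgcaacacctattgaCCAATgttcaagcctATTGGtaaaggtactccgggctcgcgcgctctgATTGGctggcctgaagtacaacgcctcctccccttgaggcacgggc
FDPS, chr1:155308616-155308865, plus strand: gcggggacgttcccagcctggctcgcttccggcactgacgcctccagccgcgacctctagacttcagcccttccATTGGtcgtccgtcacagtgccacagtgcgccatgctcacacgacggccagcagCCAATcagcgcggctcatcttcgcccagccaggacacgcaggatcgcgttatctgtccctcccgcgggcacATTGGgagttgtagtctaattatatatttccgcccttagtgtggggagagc
DHCR7, chr11:71448394-71448643, minus strand: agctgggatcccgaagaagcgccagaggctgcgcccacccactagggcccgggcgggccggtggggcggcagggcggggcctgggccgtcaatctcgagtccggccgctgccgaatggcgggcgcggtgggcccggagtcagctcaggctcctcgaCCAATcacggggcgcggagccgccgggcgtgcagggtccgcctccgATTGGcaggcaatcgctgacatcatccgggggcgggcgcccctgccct
The MVK stretch held 5 such boxes, FDPS 3, and HMGCS1 and DHCR7 2 each. Where a gene had more than 1 window, the window with the most such boxes was the one shown. The other window of HMGCS1 and that of DHCR7 held none. CCAAT was present in a window of 6 of 6 genes, whereas 39.7% of the 27305 genes with a window have one. It occurred in 7 of the 10 windows, against 34.6% of all windows. The SP1 box GGGCGG was likewise in 6 of 6 genes, against 48.3% of all genes. TCACNCCAC, a form of the sterol regulatory element that SREBP reads, was in none of the 10 windows, against 1.13% of all windows. CACGTG, the E-box, was in none of them either, against 7.26% of all windows. A match is a description of letters, and a missing match says only that the letters are not in the window.

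**Figure D1:**
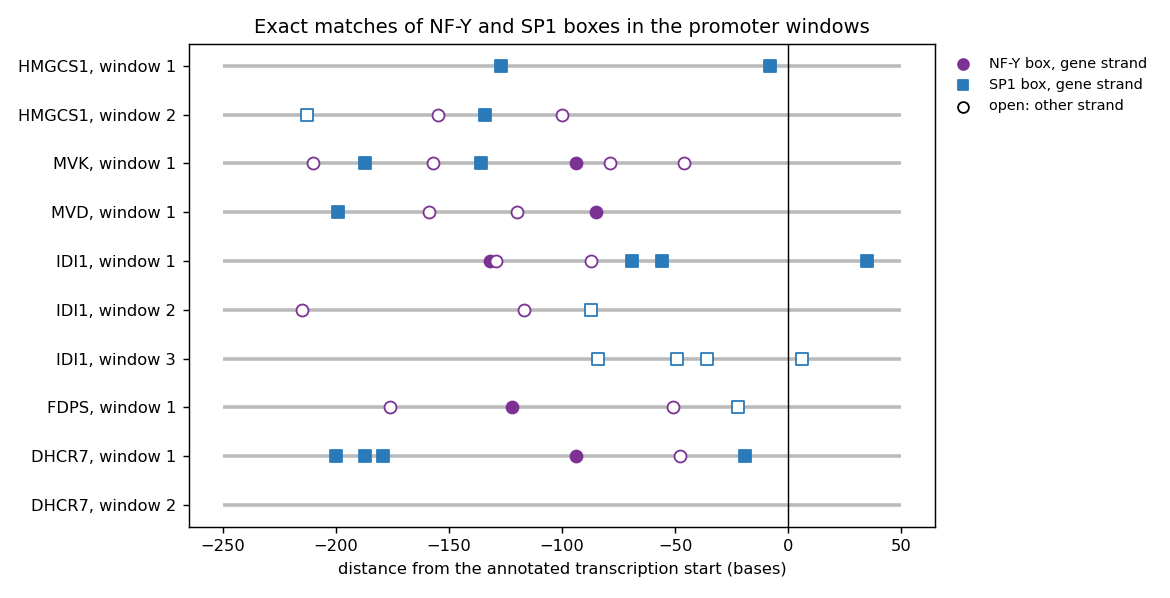
Positions of exact NF-Y boxes (circles) and SP1 boxes (squares) in the 10 promoter windows, along the distance from the annotated start in bases; filled marks are on the strand of the gene, open marks on the other. NF-Y boxes lie upstream of the start in 7 windows, and 1 IDI1, 1 HMGCS1 and 1 DHCR7 window have none.

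Against control, decitabine plus panobinostat lowered 4 of the 7 enzymes and raised none. MVK fell by 1.01 on the log2 scale (a 2.01-fold difference), DHCR7 by 0.95, FDPS by 0.69 and HMGCS1 by 0.58. Decitabine plus valproic acid lowered MVK, by 0.78, and HMGCS1, by 0.37, and the other 5 did not pass the test. These calls come from limma fitted to all 14884 genes and all arrays, at a Benjamini-Hochberg adjusted p under 0.05. In these bulk samples, fewer cells that express a gene and less of its RNA per cell cannot be told apart.

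The share of all genes called in decitabine plus panobinostat against control was 23.2%, and 12% were called lower. The 4 of 7 enzymes called lower make 57.1%. All 7 enzymes had a mean level above the median of all values, and among genes above that level 18.4% were lower by the same calls. The median change of the 7 enzymes was -0.58, beside -0.02 for all genes. In decitabine plus valproic acid against control, 17% of all genes were called, 8.06% lower, and 12.2% were lower among the genes above the median level. There 2 of 7 enzymes, or 28.6%, were lower, with a median change of -0.37 beside -0.02. When arrays were shifted to a common median over the named genes, the median of all genes moved by -0.17 and -0.16 in these comparisons, and 4 and 3 enzymes were lower. After cyclic loess between arrays 2 (HMGCS1 and MVK) and 1 (MVK) were.

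**Figure D2:**
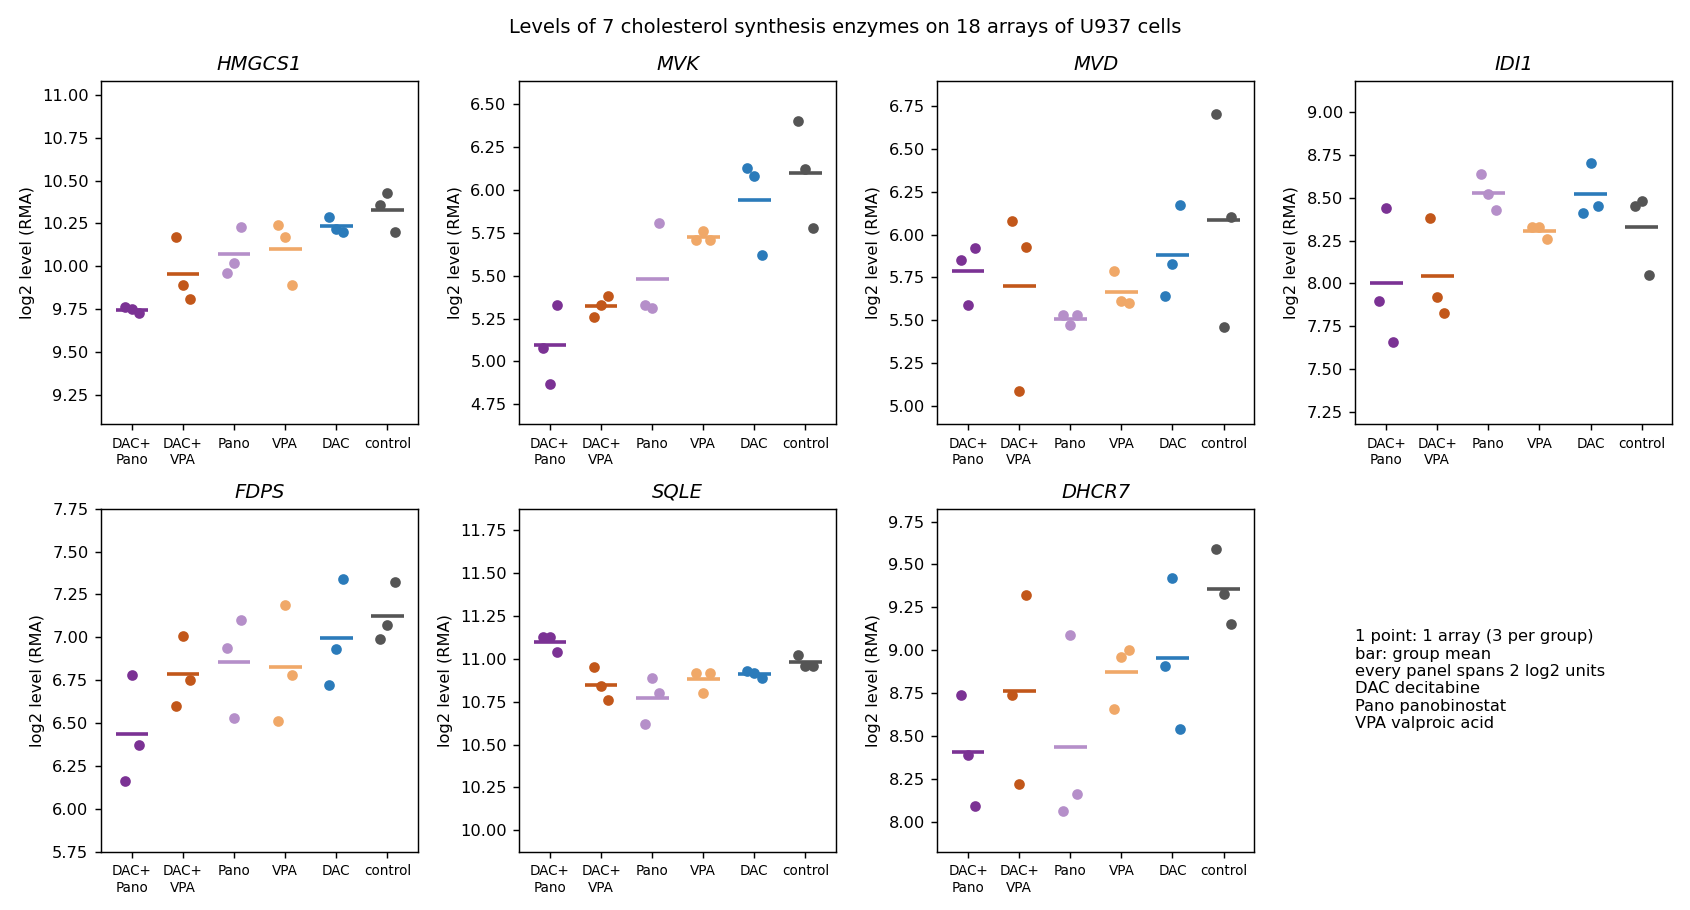
Deposited log2 level (RMA) of each of the 7 enzymes on the 18 arrays; each point is 1 array, bars are means of 3 arrays, and every panel spans 2 log2 units. The means of MVK and HMGCS1 are lowest with decitabine plus panobinostat, at 5.10 and 9.75, and that of SQLE is highest there, at 11.10.

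HMGCS1 condenses acetoacetyl-CoA with acetyl-CoA to HMG-CoA, at the entry of the pathway. Its level was 9.76, 9.75 and 9.73 on the arrays of decitabine plus panobinostat, against 10.36, 10.43 and 10.20 in control. With decitabine plus valproic acid it was 10.17, 9.89 and 9.81. Neither combination overlapped with control. The change in decitabine plus panobinostat was -0.58 ± 0.12 (SE, n = 3 arrays a group, limma adjusted p = 0.00172), and in decitabine plus valproic acid it was -0.37 ± 0.12 (adjusted p = 0.0407). Levels were 9.96, 10.02 and 10.23 with panobinostat, 10.24, 10.17 and 9.89 with valproic acid and 10.29, 10.22 and 10.20 with decitabine, all of which overlapped with control. In the order of the means, decitabine plus panobinostat was lowest at 9.75 ± 0.02 (SD, n = 3) and did not overlap with the next, decitabine plus valproic acid at 9.95 ± 0.19. From there up through panobinostat, valproic acid and decitabine to control at 10.33 ± 0.12, each group overlapped with its neighbour. In limma, the call in decitabine plus valproic acid was lost without control replicate 1 (adjusted p = 0.107), control replicate 2 (0.138), and replicate 2 (0.128) or 3 (0.167) of the combination, while the call in decitabine plus panobinostat held in all 14 settings tried.

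MVK, mevalonate kinase, adds the first phosphate to mevalonate. Its level was 5.08, 4.87 and 5.33 with decitabine plus panobinostat, against 6.40, 6.12 and 5.78 in control. It was 5.26, 5.33 and 5.38 with decitabine plus valproic acid. Every array of both combinations was below every control array. The change was -1.01 ± 0.18 (SE, limma adjusted p = 0.000498) with decitabine plus panobinostat and -0.78 ± 0.18 (adjusted p = 0.00578) with decitabine plus valproic acid, and both calls held in all 14 settings. Panobinostat alone gave 5.33, 5.31 and 5.81, which reached into the control range through replicate 3. It was the 1 enzyme that limma called in panobinostat against control, at -0.62 ± 0.18 (adjusted p = 0.0432), where 7.39% of all genes were called and 3.47% called lower. At an unadjusted p under 0.05, 5 of the 7 enzymes passed in that comparison, beside 19.6% of all genes. The limma call of MVK held in 6 of the 14 settings. It was lost without control replicate 1 (adjusted p = 0.18) or 2 (0.11) and without panobinostat replicate 1 (0.15) or 2 (0.145). Limma-trend lost it as well (adjusted p = 0.0888). Valproic acid alone gave 5.71, 5.76 and 5.71, below each control array, and decitabine alone 6.13, 6.08 and 5.62. The change with valproic acid was -0.37 ± 0.18 (limma adjusted p = 0.258) and with decitabine -0.15 ± 0.18 (adjusted p = 0.747). In the order of the means, which ran from decitabine plus panobinostat at 5.10 ± 0.23 up to control at 6.10 ± 0.31, every neighbouring pair of groups overlapped.

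MVD, which decarboxylates mevalonate diphosphate to isopentenyl diphosphate, passed no test. Its arrays read 5.85, 5.59 and 5.92 with decitabine plus panobinostat and 6.08, 5.09 and 5.93 with decitabine plus valproic acid, against 6.70, 5.46 and 6.10 in control. Both combinations overlapped with control, whose arrays had an SD of 0.62. The change was -0.30 (95% interval -0.87 to 0.26) in the first combination and -0.39 (-0.95 to 0.18) in the second. With panobinostat the level was 5.53, 5.47 and 5.53 and the change -0.57 (limma adjusted p = 0.244), and without control replicate 1 the change in decitabine plus panobinostat was 0.00. It read 5.79, 5.61 and 5.60 with valproic acid and 5.64, 5.83 and 6.17 with decitabine, within the control range.

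IDI1 interconverts isopentenyl and dimethylallyl diphosphate, the units from which isoprenoids are built. It read 7.90, 8.44 and 7.66 with decitabine plus panobinostat and 8.38, 7.92 and 7.83 with decitabine plus valproic acid, against 8.45, 8.48 and 8.05 in control. Both combinations overlapped with control. The changes were -0.33 ± 0.18 (limma adjusted p = 0.246) and -0.28 ± 0.18 (adjusted p = 0.357). It read 8.64, 8.52 and 8.43 with panobinostat, 8.33, 8.33 and 8.26 with valproic acid and 8.41, 8.70 and 8.45 with decitabine. Its means were highest with panobinostat, at 8.53 ± 0.10, and with decitabine, at 8.52 ± 0.16, and each group overlapped with its neighbour in the order. Replicate 2 of decitabine plus panobinostat stood above the others of its group, and without it the change against control was -0.55 and called in limma (adjusted p = 0.033).

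FDPS makes farnesyl diphosphate and is the enzyme that nitrogen-containing bisphosphonates inhibit. It read 6.16, 6.78 and 6.37 with decitabine plus panobinostat, against 6.99, 7.07 and 7.32 in control, without overlap. It read 6.60, 7.01 and 6.75 with decitabine plus valproic acid, which did overlap. The change was -0.69 ± 0.21 (limma adjusted p = 0.0253) with decitabine plus panobinostat and -0.34 ± 0.21 (adjusted p = 0.337) with decitabine plus valproic acid. Levels were 6.94, 6.53 and 7.10 with panobinostat, 6.51, 7.19 and 6.78 with valproic acid and 6.72, 6.93 and 7.34 with decitabine, all of which overlapped with control. In limma the first call was lost without control replicate 2 (adjusted p = 0.0509) or 3 (0.102) and without replicate 1 (0.117) or 3 (0.0735) of the combination. A second probe set named FDPS, at 4.74 ± 0.21 with the combination and 4.89 ± 0.25 in control, differed by -0.14 ± 0.18 (limma adjusted p = 0.669 over 16098 probe sets), and the probe sets correlated with an r of 0.43 over the 18 arrays. The mean of both probe sets changed by -0.42 (limma adjusted p = 0.0867) and was not called.

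SQLE, squalene epoxidase, carries out the first oxygen-dependent step and is a rate-limiting enzyme of the pathway. Unlike the 4 enzymes that fell, it read higher in decitabine plus panobinostat, at 11.13, 11.13 and 11.04, against 11.02, 10.96 and 10.96 in control. The arrays did not overlap, but the change of 0.12 ± 0.09 (95% interval -0.07 to 0.32, limma adjusted p = 0.419) did not pass the test, and it became -0.05 when arrays were shifted to a common median. Every array of the other 4 treatments read below every control array. The levels were 10.95, 10.84 and 10.76 with decitabine plus valproic acid and 10.62, 10.89 and 10.80 with panobinostat. They were 10.92, 10.80 and 10.92 with valproic acid, and 10.93, 10.92 and 10.89 with decitabine. None of the 4 differences, between -0.21 and -0.07, passed the test.

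DHCR7, which takes 7-dehydrocholesterol to cholesterol in the last step, read 8.74, 8.39 and 8.09 with decitabine plus panobinostat, against 9.59, 9.33 and 9.15 in control. It read 8.74, 8.22 and 9.32 with decitabine plus valproic acid and 8.06, 9.09 and 8.16 with panobinostat. The panobinostat and decitabine plus panobinostat arrays lay below all control arrays, and the decitabine plus valproic acid arrays overlapped. The change was -0.95 ± 0.30 (limma adjusted p = 0.0302) with decitabine plus panobinostat, -0.59 ± 0.30 (adjusted p = 0.212) with decitabine plus valproic acid and -0.92 ± 0.30 (adjusted p = 0.0793) with panobinostat. In limma the call with decitabine plus panobinostat was lost without control replicate 1 (adjusted p = 0.109) or 2 (0.0654) and without replicate 2 (0.0713) or 3 (0.12) of the combination. Panobinostat passed without its replicate 2 (adjusted p = 0.0205), with limma-trend (0.0355) and with array weights (0.043). Valproic acid alone averaged 8.87 ± 0.19 (SD, n = 3), with each array below each control array, and decitabine alone gave 8.91, 9.42 and 8.54. Means ran from decitabine plus panobinostat at 8.41 ± 0.32 up to control at 9.35 ± 0.22, and every neighbouring pair in that order overlapped.

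**Figure D3:**
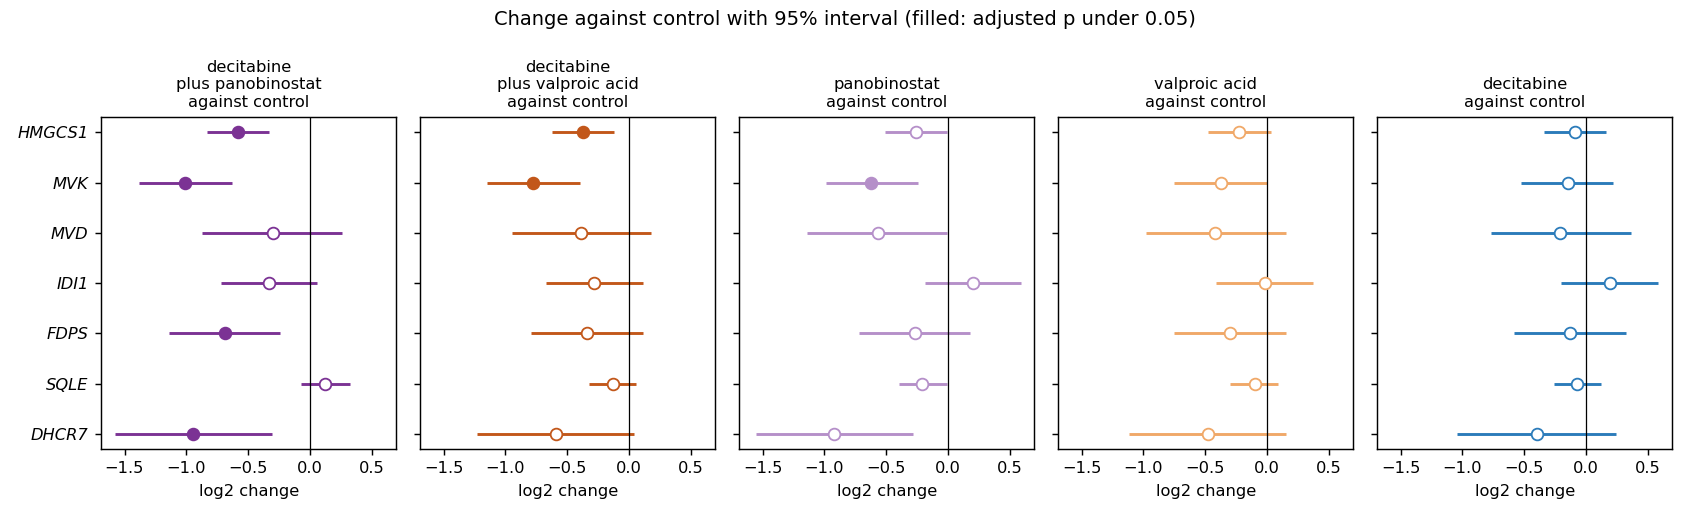
Log2 change of each enzyme against control (x axis) in 5 panels, 1 for each treatment, with 95% intervals from limma; filled points passed at an adjusted p under 0.05. Filled points are MVK, HMGCS1, FDPS and DHCR7 with decitabine plus panobinostat, MVK and HMGCS1 with decitabine plus valproic acid and MVK with panobinostat.

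With decitabine alone and with valproic acid alone, limma called 0 of the 7 enzymes, while 3.96% and 7.47% of all genes were called. At an unadjusted p under 0.05, 0 enzymes passed in either comparison, beside 16.5% and 19.7% of all genes. The changes ranged from -0.40 to 0.19 with decitabine and from -0.48 to -0.02 with valproic acid. Their 95% intervals reached -1.04 for DHCR7 with decitabine and -1.12 for DHCR7 with valproic acid, so differences up to that size lie within them.

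Set against decitabine alone, decitabine plus panobinostat lowered HMGCS1 by 0.49 (limma adjusted p = 0.00951) and MVK by 0.85 (adjusted p = 0.00354), 2 of 7 enzymes, while 15.6% of all genes were called and 7.91% were lower. Both calls held in all 14 settings, and the arrays did not overlap. IDI1, at -0.52 (limma adjusted p = 0.0685), and FDPS, at -0.56 (adjusted p = 0.0895), missed the threshold and passed without decitabine plus panobinostat replicate 2 (0.01 and 0.0426). Against panobinostat alone the combination changed 1 of 7, while 9.55% of all genes were called and 5.42% were higher. SQLE rose by 0.33 ± 0.09 (limma adjusted p = 0.0321), and its arrays did not overlap. That limma call was lost without decitabine plus panobinostat replicate 1 (0.0959), 2 (0.0874) or 3 (0.0525) and without panobinostat replicate 1 (0.156) or 3 (0.0649), and with arrays shifted to a common median it was 0.22 (0.144). IDI1 differed by -0.53 (limma adjusted p = 0.0884) and passed without decitabine plus panobinostat replicate 2 (0.0135).

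Decitabine plus valproic acid lowered MVK by 0.63 against decitabine alone (limma adjusted p = 0.0468), 1 of 7 enzymes beside 6.13% of all genes called and 2.57% lower. That limma call was lost without decitabine replicate 1 (0.163) or 2 (0.144) and without any 1 of the 3 combination arrays (0.0915, 0.115 and 0.114). IDI1 differed by -0.47 (limma adjusted p = 0.149), and passed without decitabine plus valproic acid replicate 1 (0.0479). Against valproic acid alone, limma called 0 of 7 beside 4.03% of all genes, with 1 enzyme, MVK at -0.41 (limma adjusted p = 0.266), under an unadjusted 0.05, as were 15.9% of all genes.

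Between the inhibitors alone, and between the combinations, limma called 0 of 7 enzymes, beside 0.121% and 0.652% of all genes. At an unadjusted p under 0.05 there were 0 of 7 between the inhibitors and 1 of 7 between the combinations, beside 9.06% and 11.9% of all genes. That enzyme, SQLE, was 0.25 above in decitabine plus panobinostat set against decitabine plus valproic acid (95% interval 0.06 to 0.44, limma adjusted p = 0.263). The doses cannot be matched from the labels, so these values are given side by side. The interaction, which is how far the log2 change under a combination departs from adding up those of its agents, was called for 0 of 7 enzymes with either inhibitor, beside 0.625% and 0.0605% of all genes. With panobinostat, 2 enzymes were under an unadjusted 0.05, as were 10.5% of all genes: SQLE at 0.40 (limma adjusted p = 0.23) and IDI1 at -0.72 (limma adjusted p = 0.293). With valproic acid there were 0, beside 7.72% of all genes.

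The 7 enzymes differed in how closely they moved together. Over the 18 arrays, which share the 6 groups, r between pairs of enzymes lay between -0.42 and 0.83 with a median of 0.31, and 16 of 21 pairs were above 0. The closest pair was HMGCS1 and MVK, at 0.83, and SQLE was the enzyme in the lowest pair, with FDPS at -0.42. The genes whose profile was most like the mean of the enzymes were TADA2A, a subunit of histone acetyltransferase complexes, SFXN4 and NXF3, each with an r of 0.90, and PCLAF and CCDC43, each with 0.89, over the 18 arrays. Among the genes of the other lists below, the highest ranks were those of FASN, 17 of 14877 other genes at an r of 0.86, and ACACA, 56 at 0.83. The other cholesterol synthesis genes ranked from 328 (ACAT2, r of 0.76) to 14300 (LBR, r of -0.70). INSIG2 had an r of -0.80.

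Among 10 measured of 14 other cholesterol synthesis genes, decitabine plus panobinostat lowered 4 and raised 1 against control, beside 23.2% of all genes called and 12% lower. ACAT2, cytosolic acetoacetyl-CoA thiolase, fell by 0.67 (limma adjusted p = 0.000201). PMVK, the kinase after MVK, fell by 0.51 (limma adjusted p = 0.0275), NSDHL, a sterol demethylation enzyme, by 0.50 (0.00397) and EBP, a sterol isomerase, by 0.40 (0.0118). PMVK lost its call without any 1 control array or replicate 2 or 3 of the combination (limma adjusted p up to 0.138) and after cyclic loess (0.117). EBP lost its call without replicate 2 of the combination (limma adjusted p = 0.0686), after cyclic loess (0.0573) and with only the compared groups fitted (0.0891). The call of LBR, a sterol reductase of the nuclear envelope that rose by 0.40, was lost with arrays shifted to a common median (0.0898). ACAT2 also fell with panobinostat, by 0.53, and with valproic acid, by 0.38, where the call was lost without control replicate 2 or 3 or any 1 valproic acid array (limma adjusted p up to 0.141), after cyclic loess (0.0555) and with the replicate block (0.0575). With only the compared groups fitted, limma called ACAT2 with neither (adjusted p = 0.0501 with panobinostat and 0.091 with valproic acid). In decitabine plus valproic acid against control 0 of the 10 were called in limma, with 3 under an unadjusted 0.05, beside 17% and 28.4% of all genes.

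Of 7 measured genes that sense sterols or activate SREBP, INSIG2, which holds SREBP in the endoplasmic reticulum, rose by 0.59 with decitabine plus panobinostat and by 0.48 with decitabine plus valproic acid (0.32 with arrays shifted to a common median). UBE2G2, a ubiquitin-conjugating enzyme of degradation at the endoplasmic reticulum, fell in all 5 treatments, with changes between -0.92 and -0.55. These were the 2 of 7 called with each combination, 1 higher and 1 lower, or 28.6% of the list beside 23.2% and 17% of all genes. The UBE2G2 call under decitabine was lost without control replicate 1 or 2 or decitabine replicate 1 (limma adjusted p up to 0.134). Under panobinostat it was lost without any 1 control array or panobinostat replicate 2 or 3 (up to 0.18). The panobinostat changes in those fits lay between -0.62 and -0.44, beside -0.55 with all arrays. Under valproic acid the call was lost without control replicate 2 or valproic acid replicate 1 or 3 (up to 0.0939). With only the compared groups fitted, limma did not call UBE2G2 with decitabine (adjusted p = 0.112) or panobinostat (0.101), nor with panobinostat after cyclic loess (0.0832). SREBF2, which encodes SREBP-2, averaged 7.82 ± 0.18 with decitabine plus panobinostat and 8.10 ± 0.09 in control (SD, n = 3 each), a difference of -0.28 (limma adjusted p = 0.0772). SREBF1 differed by -0.79 (0.077) and INSIG1, an SREBP target, by -0.30 (0.367), and none of these passed against control. Against decitabine alone, decitabine plus panobinostat lowered 1 of the 7 genes and raised 1, beside 15.6% of all genes called. SREBF1 was the lower, at -1.02 (limma adjusted p = 0.0334, called in 8 of the 14 settings). INSIG2 was the higher, at 0.80 (limma adjusted p = 0.000164).

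In fatty acid synthesis, a pathway known to be driven by SREBP-1, 4 of 10 measured genes fell with decitabine plus panobinostat, while decitabine plus valproic acid lowered 3, beside 12% and 8.06% of all genes called lower. FASN, fatty acid synthase, read 7.55, 6.92 and 7.03 with decitabine plus panobinostat, against 9.04, 9.20 and 9.03 in control. It fell by 1.92 there (limma adjusted p = 7.91e-08) and by 1.22 with decitabine plus valproic acid (2.54e-05). ACACA, acetyl-CoA carboxylase, fell by 1.76 and 1.35, and SCD, stearoyl-CoA desaturase, by 1.35 and 1.03. Without replicate 3 of decitabine plus valproic acid the SCD change there was -0.66 (limma adjusted p = 0.0255), and with only the compared groups fitted it was not called (0.0591). FASN also fell with panobinostat alone, by 1.44, and valproic acid alone, by 1.12.

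**Figure D4:**
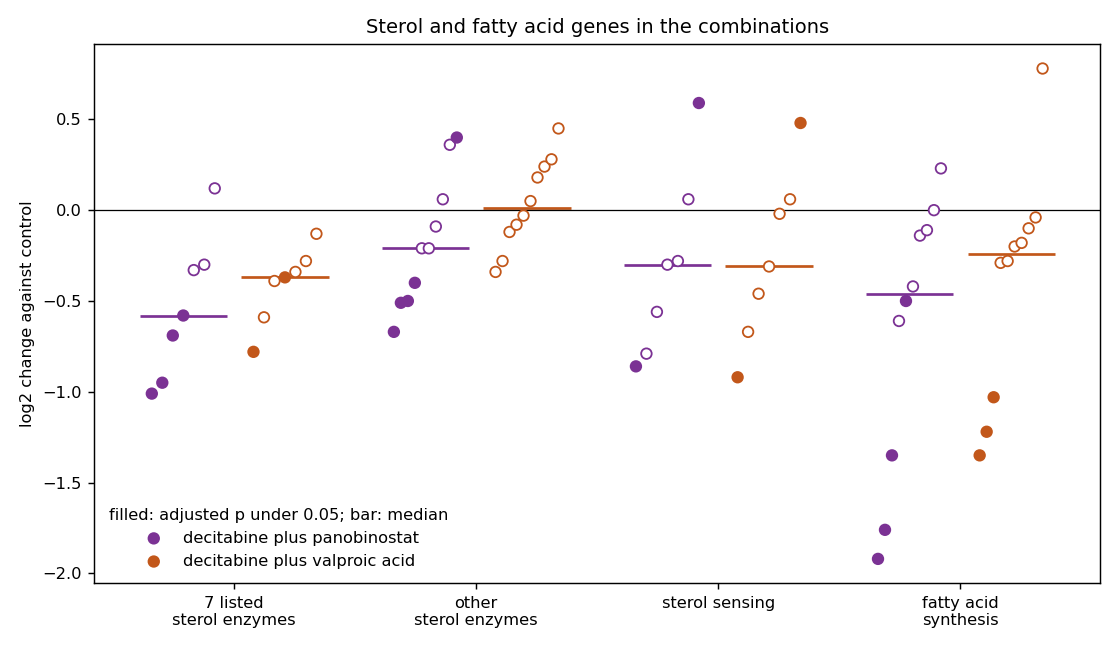
Log2 change against control (y axis) of each measured gene of 4 lists, with decitabine plus panobinostat left of decitabine plus valproic acid; filled points passed at an adjusted p under 0.05 and bars are medians over the list. The deepest changes are FASN, ACACA and SCD in the fatty acid list.

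Outside synthesis, decitabine plus panobinostat against control changed 2 of 6 measured genes of cholesterol uptake, 1 of 5 of esterification and steroid steps, 1 of 3 of the isoprenoid branch and 1 of 2 of ketone metabolism, beside 23.2% of all genes. STAR, a carrier of cholesterol to the inner mitochondrial membrane, was lower by 1.61 with decitabine plus panobinostat, by 1.78 with panobinostat and by 1.73 with valproic acid. With decitabine plus valproic acid the change of STAR was -0.53 (limma adjusted p = 0.25) and was not called. VLDLR, a lipoprotein receptor, fell by 1.07 with decitabine plus panobinostat and by 0.96 with panobinostat (limma adjusted p = 0.0608 with only the compared groups fitted). CD36, a scavenger receptor, rose by 1.22 with panobinostat. With decitabine plus panobinostat CD36 differed from control by 0.19 (limma adjusted p = 0.603) and from panobinostat alone by -1.03 (0.00449). MSR1, at 3.55 with decitabine plus panobinostat and 3.19 in control, rose by 0.37 below the median of all values. Of 10 listed LXR and efflux genes, 4 were measured: MYLIP, APOE, APOC1 and LPCAT3. ABCA1 was not among them. Limma called 0 of the 4 in each of the 5 comparisons with control, with 0 to 1 under an unadjusted 0.05, beside 16.5% to 32.2% of all genes. In control APOC1 averaged 3.30, below the median of all values, and APOE 4.02, close to it. These calls therefore say little about efflux. NUS1, of the dolichol branch, fell by 0.33 with decitabine plus panobinostat, while decitabine plus valproic acid lowered it by 0.42. OXCT1, of ketone use, fell by 0.57 with decitabine plus panobinostat. The MSR1 call was lost without any 1 control array or replicate 1 or 3 of the combination (limma adjusted p up to 0.0787) and with arrays shifted to a common median (0.182). The NUS1 call with decitabine plus panobinostat was lost without control replicate 2 or 3 or replicate 1 or 2 of the combination (limma adjusted p up to 0.165), after cyclic loess (0.0791) and with only the compared groups fitted (0.132), and its change was -0.50 with arrays shifted to a common median. With decitabine plus valproic acid it was lost without control replicate 2 or replicate 3 of the combination (limma adjusted p up to 0.0632) and with only the compared groups fitted (0.0732).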

How the data were processed

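The values are log2 levels per probe set as deposited, and per the submitters' processing notes RMA produced them (version not given in the sources used here). Probe sets were named through the array annotation with symbols updated by gene identifier: of 48226, 16098 had 1 symbol and 32128 none. Where a gene had several (779 genes), the brightest stood for it. There was no filter on low levels. All named genes were fitted with limma 3.58.1 in R 4.3.3, with 1 mean per group and Benjamini-Hochberg adjustment over the 14884 genes of a comparison, a call being an adjusted p under 0.05. The 13 comparisons are the treatments against control, the combinations against their agents, the inhibitors and the combinations against each other, and the interactions. The code was tested on simulated data first. The enzymes, the other lists and the alternatives were chosen with earlier results of these data known. The genes named are the enzymes, up to 4 called members of each list by size of change against control, 8 genes of sterol control named whatever their values, and the 5 genes most correlated with the mean of the enzymes. Changes near background are compressed on arrays.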

Additional observations from a re-analysis of the deposited data

Results flagged for a closer look

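SQLE drew attention because its arrays moved in opposite directions when the same agent was added with and without the other. With panobinostat against control every array was lower (-0.21), whereas with decitabine plus panobinostat against decitabine every array was higher (0.19), and the difference between these changes was 0.40. Seen from the other agent, decitabine against control gave -0.07 with every array lower, decitabine plus panobinostat against panobinostat gave 0.33 with every array higher, and the difference is the same 0.40. That difference was tested as the interaction in limma (SE 0.13, adjusted p = 0.23) and did not pass.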

How the results depend on the processing

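MVK and HMGCS1 in decitabine plus panobinostat, against control and against decitabine, and MVK in decitabine plus valproic acid against control, were called in all 14 settings. With the fit on only the compared groups, 0 enzymes were called in panobinostat against control, 1 in decitabine plus valproic acid against control, 0 in decitabine plus panobinostat against panobinostat and 0 in decitabine plus valproic acid against decitabine. The same fits, with fewer arrays to estimate the spread, called 938 of all genes in place of 1421 in decitabine plus panobinostat against panobinostat, 177 for 913 in decitabine plus valproic acid against decitabine, 261 for 600 in decitabine plus valproic acid against valproic acid, 0 for 18 in panobinostat against valproic acid, 2 for 97 between the combinations and 3 for 9 in the interaction with valproic acid. That interaction called 14 genes after cyclic loess, 16 with limma-trend and 30 with array weights. Cyclic loess called 0 enzymes in panobinostat against control, 2 in decitabine plus panobinostat against control and 1 in decitabine plus valproic acid against control. In the same order, 400, 1353 and 1006 of all genes were called lower. Array weights called 2 in panobinostat against control, and limma-trend 0 in decitabine plus valproic acid against decitabine. The common median called 4 in decitabine plus panobinostat against decitabine and 2 against panobinostat, beside 1776 and 1147 of all genes called lower. It turned SQLE in decitabine plus panobinostat against control to -0.05, and DHCR7 in decitabine plus panobinostat against panobinostat was 0.04 after cyclic loess and 0.00 with array weights. The cause was not tested in any of these.

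Arrays with the same replicate number were little alike. Over 45 pairs of same-numbered arrays, r of the deviations from the group means lay between -0.11 and 0.10. In 20 of the 45, the array correlated best with its own number among the 3 arrays of the other group. Whether the numbers pair the arrays was not tested. With the replicate block, 0 enzymes were called in panobinostat against control, 2 in decitabine plus panobinostat against panobinostat and 0 in decitabine plus valproic acid against decitabine.

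The share of calls that were higher was 48.4% in decitabine plus panobinostat against control and 52.5% in decitabine plus valproic acid against control, and 26.1% and 26% with the common median. It was 53% (40.3%, and 63.3% after cyclic loess) with panobinostat, 63.3% (46.7%) with valproic acid and 64.9% (46.7%) with decitabine. For decitabine plus panobinostat it was 49.2% (32.5%, and 59.5% after cyclic loess) against decitabine, 56.7% (34%) against panobinostat and 56.7% (68.4% after cyclic loess) against decitabine plus valproic acid. For decitabine plus valproic acid it was 58.2% (34.3%) against decitabine and 65.2% (42.3%) against valproic acid, and in the interaction with valproic acid 22.2% (36.4%, and 50% after cyclic loess).

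Leaving out 1 array of the compared groups in turn gave 2 to 4 enzymes called in decitabine plus panobinostat against control and against decitabine, and 0 to 1 against panobinostat. It gave 1 to 2 in decitabine plus valproic acid against control, 0 to 1 against decitabine and 0 to 1 in panobinostat against control. In decitabine plus panobinostat, 2811 to 2973 genes were called against control (3447 with all arrays) and 1675 to 1861 against decitabine (2317). In decitabine plus valproic acid against control, 1759 to 2547 genes were called (2524 with all arrays). Genes called ranged from 882 to 1126 in decitabine plus panobinostat against panobinostat, 360 to 1227 in decitabine plus valproic acid against decitabine, 371 to 565 against valproic acid, 659 to 854 with panobinostat, 508 to 1001 with valproic acid and 361 to 468 with decitabine, each against control. They ranged from 26 to 109 between the combinations, 4 to 15 between the inhibitors, 46 to 98 in the interaction with panobinostat and 3 to 26 in that with valproic acid. Changes that never passed crossed 0: MVD from -0.62 to 0.00 in decitabine plus panobinostat against control, -0.21 to 0.05 against decitabine, -0.37 to 0.13 in decitabine plus valproic acid against decitabine and -0.52 to 0.10 with decitabine, DHCR7 from -0.22 to 0.30 in decitabine plus panobinostat against panobinostat and -0.47 to 0.08 in decitabine plus valproic acid against decitabine, IDI1 from -0.16 to 0.05 with valproic acid, and MVK from -0.31 to 0.01 and FDPS from -0.30 to 0.01 with decitabine.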
